A study of Mus musculus with 6 samples.

Results

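The REEP family and its partners in shaping the endoplasmic reticulum (ER) were followed as 10 genes: Reep1 to Reep6, the atlastins Atl2 and Atl3, and the reticulons Rtn3 and Rtn4. Members were all probe sets annotated to 1 of these symbols, 26 of 45101 on the array, with no probe set annotated to Atl2 in the table used. The family was put forward because Reep4 was among the few genes that differed between the arms, so the arm differences of the members are a description and carry no test. Messenger RNA was measured on 6 arrays from 32D, a mouse myeloid cell line that depends on interleukin-3. The 3 samples of one arm carried construct C2-MiR-9, from which miR-9 and its partner strand miR-9* are made, and the 3 of the other arm carried the empty vector, construct A1-EV. Interleukin-3 at 10 ng/ml was present in all 6 cultures, as was 10% FCS (serum). The sources used here name neither the vector's promoter nor whether an arm is a clone or a pool of cells. The replicates are called independent without saying how cultures were separated, so the spread between them may be partly technical.

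The ER is a single membrane system of flat sheets and narrow tubules that is continuous with the nuclear envelope. REEP proteins and reticulons insert hairpins into the outer face of the membrane and bend it into tubules, and atlastins are GTPases that fuse tubules into a network. Within the family, Reep1 to Reep4 also bind microtubules, and Reep3 and Reep4 are known for keeping ER membrane away from chromosomes during mitosis, whereas Reep5 and Reep6 belong to the DP1 branch. MicroRNAs lower target messages mainly through pairing of their seed, bases 2 to 8, with the 3′ part of the message.

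The strands made from the construct are shown because all differences below are between cells with that construct and cells with the empty vector. Levels of the strands were not measured here in either arm. The sequences are those of RefSeq for mouse, with the seed in capitals. miR-9 is the 5p strand and miR-9* the 3p strand of 1 precursor.
mmu-miR-9-5p: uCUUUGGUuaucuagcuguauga
mmu-miR-9-3p: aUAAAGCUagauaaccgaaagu
Both are identical in the 3 mouse genes Mir9-1, Mir9-2 and Mir9-3, and the labels do not say which of these was used. In Mir9-1 (GRCm38.p6, plus strand) the 5p strand lies at chr3:88215613-88215635 and the 3p strand at chr3:88215652-88215673. The seeds differ, so a message would pair with the 5p seed through ACCAAAG and with the 3p seed through AGCUUUA. Whether the members' messages hold these bases was not analysed here.

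Each array gives a MAS5 signal per probe set, a linear intensity, with array medians from 11.99 to 15.2. Differences are miR-9/9* minus empty vector in log2(signal + 16), which understates changes of dim probe sets, and errors are SDs with n = 3. Probe sets with a mean below the median of all probe sets, a signal of 12.9, were left out of fits. That left 23 member probe sets of 8 genes among 22519 probe sets, or 8 member genes among 10208 genes when each gene is read by its brightest probe set. Levels of different probe sets are not compared with each other. Of 10 markers of the myeloid line, 9 were above the filter, among them Ptprc, from 1367 to 1642 over the arrays, and the interleukin-3 receptor subunit Csf2rb, from 973.9 to 2736, whereas Elane was below it. Of 8 lymphoid markers with a probe set, only Cd8a was above the filter, at most 17.6.

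Reep4 was the member whose message differed most between the arms. Its single probe set, 1428478_at, gave 196, 193 and 211 with the empty vector and 59.5, 72.01 and 91.4 with miR-9/9*. The highest miR-9/9* array stayed below the lowest empty vector array, so the arms did not overlap. Mean signals were 200.1 ± 9.30 and 74.3 ± 16.1 (SD, n = 3), a ratio of 0.371. Within replicate numbers the differences were -1.49, -1.25 and -1.08, with a mean of -1.27 and an SD of 0.206. On the log2 scale the 3 empty vector arrays spanned 0.114 and the 3 miR-9/9* arrays 0.508. The smallest of the 3 differences was therefore larger than the spread within either arm. Only 6 of the 22519 probe sets had a more negative mean difference.

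**Figure D1:**
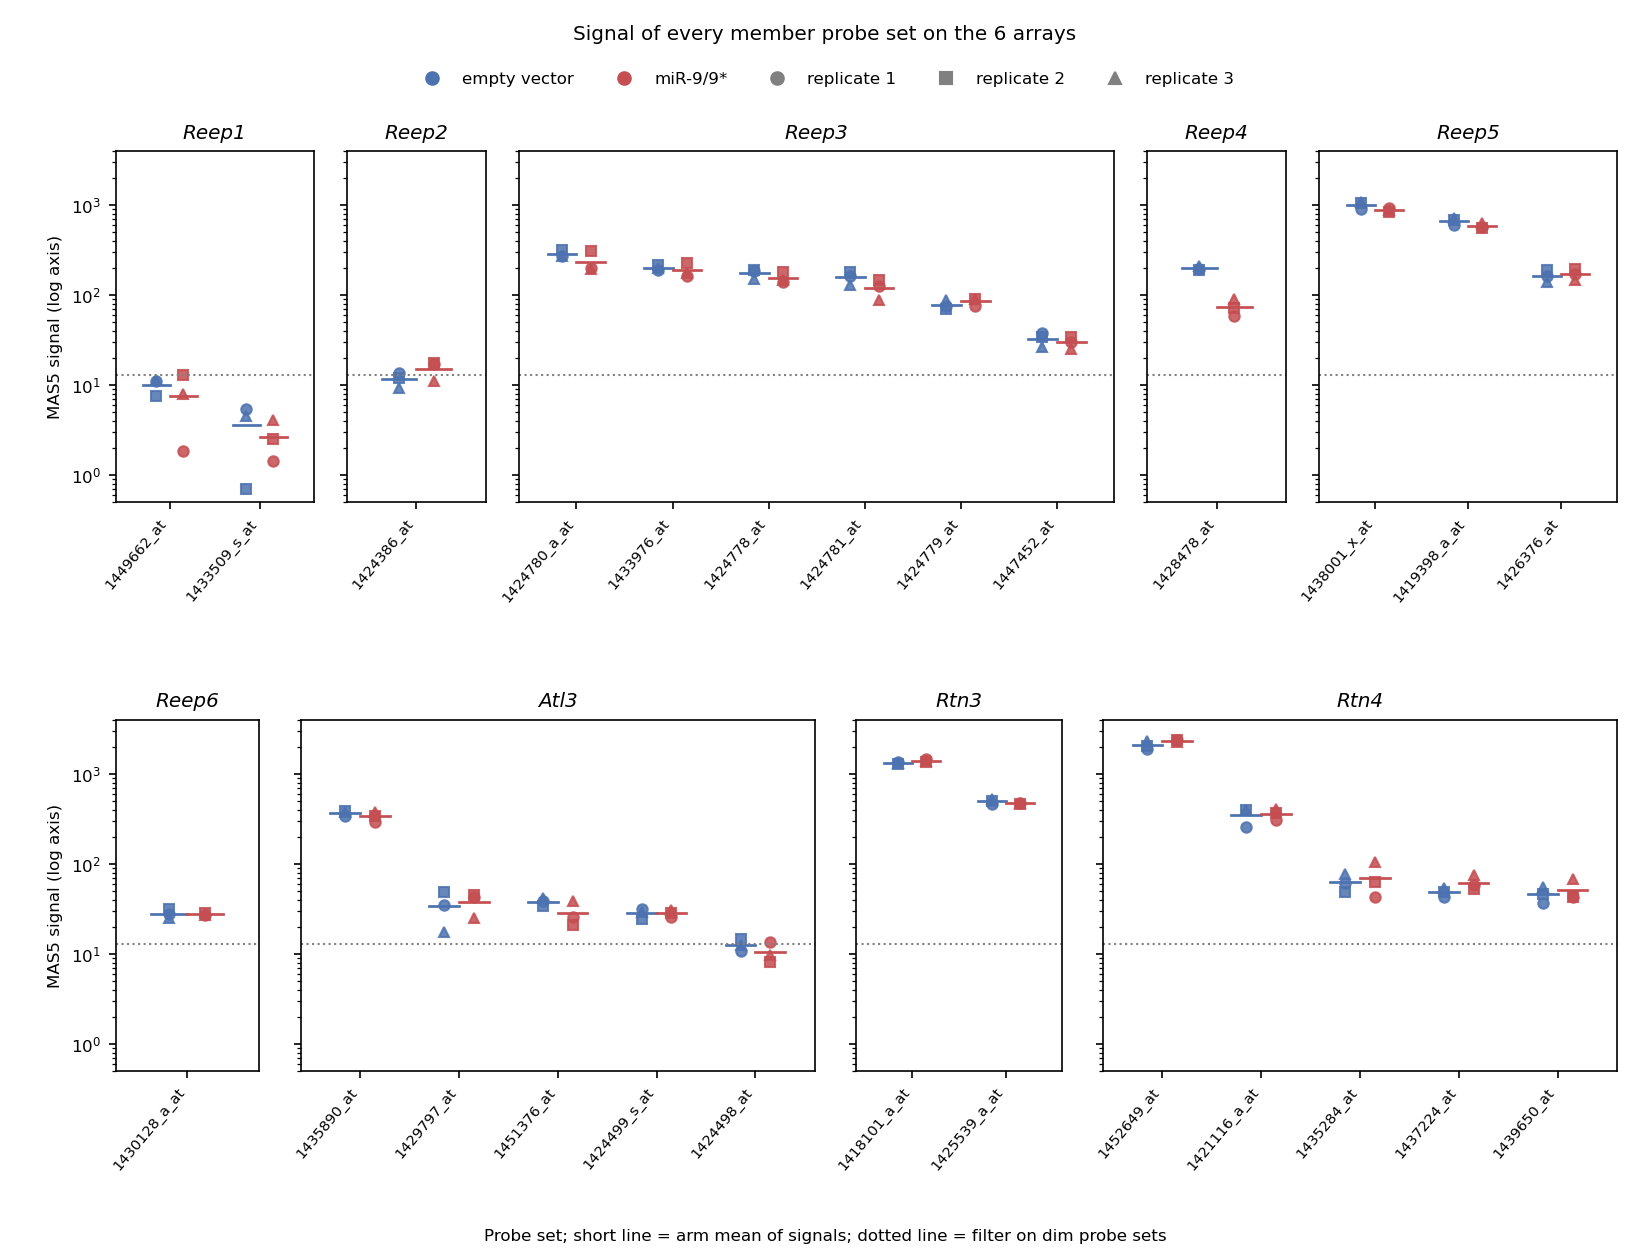
MAS5 signal (log axis) of all 26 member probe sets, grouped by gene, on the 3 empty vector arrays (blue) and the 3 miR-9/9* arrays (red), with marker shape giving the replicate number, short lines the arm means and the dotted line the filter at a signal of 12.9. Reep4 is the member with a wide gap between the arms, 193 or more against 91.4 or less, and Reep1 lies near or below the filter.

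Reep4 was the only member called by the fit over all genes. With 1 probe set a gene and no block, limma at an adjusted p under 0.05 called 1 of 8 member genes lower, where 0.0392% of all genes were called lower, and 0 higher (0.0196% of all genes; 4.60% of genes had an unadjusted p under 0.05). With the replicate number as a block it called the same gene and no other member (1.45% of all genes lower, 2.96% in either direction, 17.0% with an unadjusted p under 0.05). Over all probe sets as units and without the block, 1 of 23 member probe sets had an unadjusted p under 0.05 in limma, as had 806 of all 22519. At an adjusted p under 0.05, limma called 0 of the 23 without the block, where 0.00888% of probe sets were called in either direction. With the block it called the Reep4 probe set (0.933% of probe sets lower, 1.02% higher, 1.95% in either direction). These counts come from the contrast that brought the family forward, and nothing is read from them. The unblocked gene call was lost without each empty vector array, without miR-9/9* replicate 1 or 2, and with 5 other settings. The blocked call remained in all 5 alternatives run, which did not include other pseudocounts, quantile normalization or median centring. Whether a call was kept or lost is likewise a description.

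Reep3, the closest relative of Reep4 in mitosis, was read by 6 probe sets, all above the filter. Their mean differences ran from -0.36 to 0.11, 5 below 0 and 1 above. Probe set 1424781_at gave 166, 180.1 and 131 with the empty vector and 128, 148 and 88.8 with miR-9/9*. It was lower in all 3 replicate numbers, but the miR-9/9* array of replicate 2 exceeded the empty vector array of replicate 3, so the arms overlapped. Its mean difference was -0.36 with an SD of 0.120. With all empty vector arrays kept, it was -0.18 without miR-9/9* replicate 3 and -0.50 without miR-9/9* replicate 2. The brightest, 1424780_a_at, gave 271, 318 and 272 against 199, 309 and 197, with differences of -0.42, -0.04 and -0.43 in replicates 1, 2 and 3. Probe set 1424779_at went the other way, with 76.3, 70.5 and 89.8 against 76.0, 90.8 and 91.4 (mean difference 0.11, SD 0.172). The 3 others, 1424778_at, 1433976_at and 1447452_at, had mean differences of -0.15, -0.09 and -0.09, the last with an SD of 0.125. Probe sets of Reep3 thus did not share 1 direction.

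Of the microtubule-binding branch, Reep1 and Reep2, whose human counterparts are mutated in hereditary spastic paraplegia, were dim. Both Reep1 probe sets lay below the filter in each arm mean, 1449662_at at 10.0 ± 2.13 against 7.68 ± 5.62 and 1433509_s_at at 3.60 ± 2.547 against 2.67 ± 1.32. Reep2 (1424386_at) gave 13.8, 12.1 and 9.30 with the empty vector and 17.0, 17.7 and 11.2 with miR-9/9*. It was higher in all 3 replicate numbers by a mean of 0.17 (SD 0.0833), with overlapping arms, and it passed the filter only through its miR-9/9* values, since its empty vector mean was 11.7. With a pseudocount of 1 the same values gave 0.35.

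Reep5, the widely expressed member of the DP1 branch, was bright. Probe set 1438001_x_at gave 910.1, 1051 and 1100.3 with the empty vector and 925, 837 and 892 with miR-9/9*, with a mean difference of -0.20 (SD 0.193) and a change in replicate 1 of 0.02. Probe set 1419398_a_at gave 598, 693 and 727 against 569.9, 566 and 629. It was lower in all 3 replicate numbers (mean difference -0.19, SD 0.110), and the arms overlapped. Probe set 1426376_at, at 163, 192 and 141 against 174, 195 and 146, was higher in all 3 by 0.02 to 0.08. Its mean difference of 0.05 turned to -0.05 without empty vector replicate 3 and to -0.04 without miR-9/9* replicate 2. The same-numbered array of the other arm was kept in both cases, so differences between replicate numbers enter these values. From the arm means, 1426376_at was low in replicate 3 in both arms (-0.20 and -0.20) and high in replicate 2 (0.21 and 0.18). Affymetrix marks with _x_at a probe set that may share probes with other sequences, and the probe sets of Reep5 that differ by a suffix need not read the same transcripts. Reep6, known for its role in rod photoreceptors, gave 27.6, 31.8 and 24.9 against 27.0, 28.5 and 27.2 (1430128_a_at), with a mean difference of -0.02 (SD 0.0891). Reep6 was below 0 in replicates 1 and 2 and above 0 in replicate 3.

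Atl3, the atlastin that also serves as a receptor for autophagy of ER tubules, had 4 of 5 probe sets above the filter, with mean differences from -0.30 to 0.14. The brightest, 1435890_at, gave 340.5, 390.4 and 379 with the empty vector and 291, 340.5 and 382 with miR-9/9*, a mean difference of -0.13 (SD 0.124) with replicate 3 at 0.01. Probe set 1451376_at, at 39.0, 33.9 and 41.8 against 25.6, 21.0 and 38.7, was lower in all 3 replicate numbers by a mean of 0.30 on the log2 scale (SD 0.196). For 1451376_at the arms overlapped through miR-9/9* replicate 3. Probe sets 1429797_at and 1424499_s_at had means of 0.14 (SD 0.199) and 0.0037 (SD 0.174), each with both signs. The first was -0.12 without empty vector replicate 3 and 0.35 without empty vector replicate 2. The second was -0.07 without empty vector replicate 2 and -0.04 without miR-9/9* replicate 3. Same-numbered arrays of the other arm were kept here, and 1429797_at was low in replicate 3 in both arms (-0.52 and -0.37 from the arm means). Probe set 1424498_at lay below the filter at 12.7 ± 1.97 against 10.5 ± 2.72.

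Rtn3, a reticulon that fragments tubules for autophagy, was the steadiest member over replicates. Probe set 1418101_a_at gave 1357, 1296 and 1344 with the empty vector and 1485, 1375 and 1382 with miR-9/9*. The lowest miR-9/9* array lay above the highest empty vector array, but the difference was small, 0.13, 0.08 and 0.04 within replicate numbers (mean 0.08, SD 0.0442). Of all probe sets above the filter, 4.29% had all 3 miR-9/9* signals above the others and 4.09% all 3 below, against 1 and 1 of the 23 member probe sets. The second Rtn3 probe set, 1425539_a_at, gave 469, 504 and 527 against 478, 471 and 479.8 and had a mean difference of -0.07 (SD 0.0820). The 2 probe sets of Rtn3 therefore differed in sign. Their SDs within arms, 0.0497 and 0.0587, were low for this array: only 1.09% and 1.88% of all probe sets, without regard to brightness, had lower ones.

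Rtn4, the gene of the Nogo proteins, which shape tubules in all cells and block axon growth when made by myelin, was read by 5 probe sets with mean differences from 0.04 to 0.27. All 5 were above 0 over the 3 replicates. With single arrays left out and their same-numbered partners kept, only 1452649_at and 1437224_at always stayed above 0. The brightest, 1452649_at, gave 1902, 2037 and 2321 with the empty vector and 2364, 2403 and 2246 with miR-9/9*. It was higher in replicates 1 and 2 (0.31 and 0.24) and not in replicate 3 (-0.05), and the arms overlapped. Probe set 1437224_at gave 43.2, 49.1 and 54.1 against 58.7, 52.8 and 75.4. It was higher in all 3 replicate numbers, with a mean of 0.27 (SD 0.164), and miR-9/9* replicate 2 lay below empty vector replicate 3. Probe set 1421116_a_at differed more between replicate numbers than between arms, at 261, 398 and 403 against 305, 368 and 408 (mean difference 0.04, SD 0.163). Its difference was -0.16 without empty vector replicate 1 and -0.05 without miR-9/9* replicate 3. Probe sets 1435284_at and 1439650_at had mean differences of 0.10 and 0.10, each with both signs and SDs of 0.408 and 0.165. Without miR-9/9* replicate 3 they were -0.175 and -0.07, without empty vector replicate 2 the first was -0.03, and without empty vector replicate 1 the second was -0.02.

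**Figure D2:**
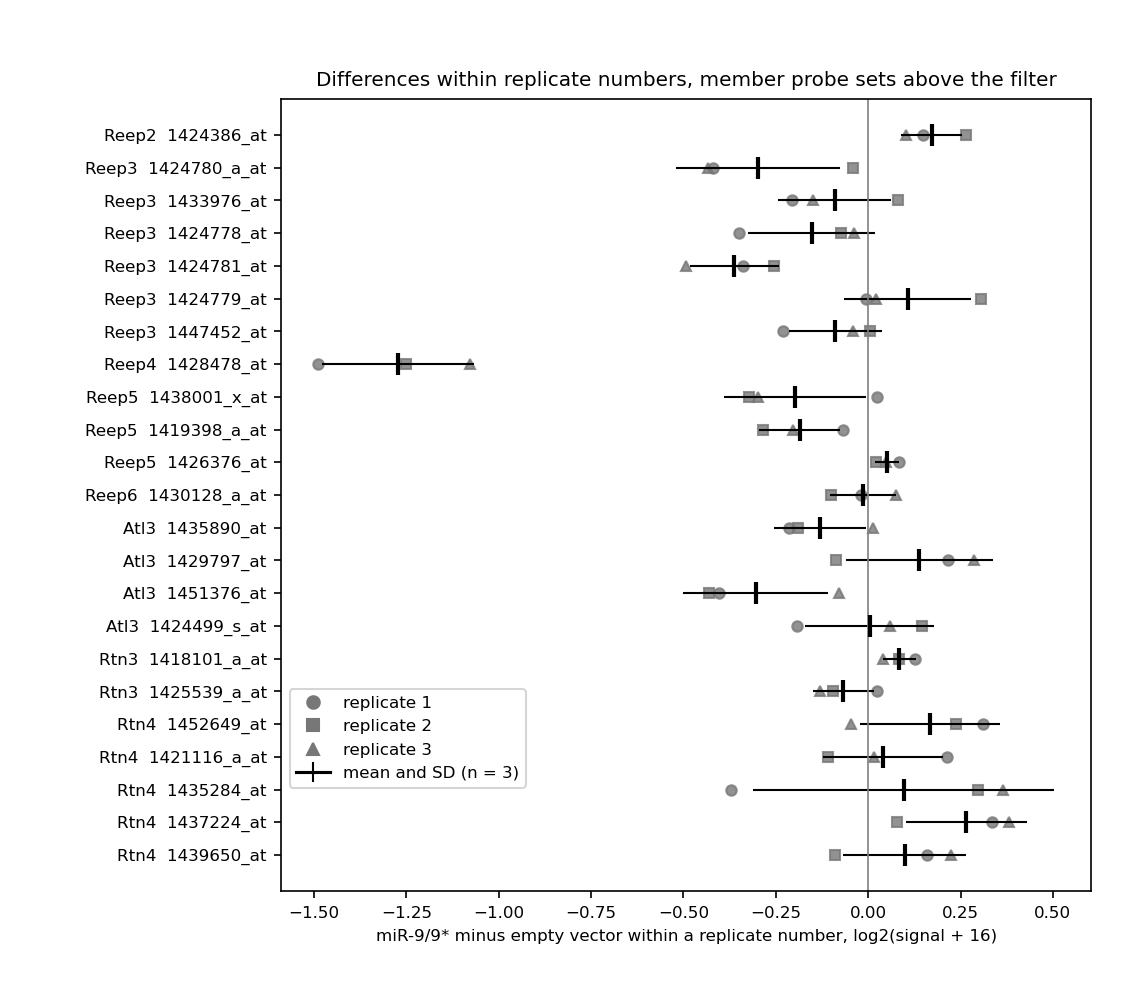
Difference miR-9/9* minus empty vector in log2(signal + 16) within each replicate number (grey markers) for the 23 member probe sets above the filter, with the mean and SD over the 3 numbers in black. Reep4 lies from -1.49 to -1.08, and all other means lie between -0.36 and 0.27.

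Apart from Reep4, the members' differences were small and of both signs. Of the 23 probe sets, 6 were lower in all 3 replicate numbers (16.3% of all probe sets were), 4 were higher in all 3 (20.1%) and 13 had both signs. Mean differences were below 0.25 in size for 18 of 23, or 78.3%, against 85% of all probe sets. The 5 beyond it were Reep4, 2 probe sets of Reep3, and 1 each of Atl3 and Rtn4. The median difference was -0.02 for the members and 0.01 for all probe sets.

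Deviations from the arm means, which do not enter the contrast, were compared between same-numbered arrays. In replicate 3, 21 of 23 probe sets lay on the same side of their arm mean in both arms, against 74.3% of all genes. In replicates 1 and 2 this held for 16 each, against 66.1% and 71.0%. Across the 23 probe sets, deviations in the 2 arms correlated at 0.332, 0.564 and 0.829 for replicates 1, 2 and 3, against 0.491, 0.616 and 0.680 across all genes. The members' correlations thus lay below those of all genes in replicates 1 and 2 and above in replicate 3, a difference that was not tested. In replicate 1 the same-side share of the members was not below that of all genes. Points share a gene where it has several probe sets, deviations within an arm sum to 0, and the correlations are descriptions. The direction differed between genes. In replicate 3 the Rtn4 probe sets 1435284_at and 1439650_at were above their arm means in both arms (0.28 and 0.54, 0.21 and 0.34), while Reep3 1424781_at was below (-0.24 and -0.37), as was Atl3 1429797_at (-0.52 and -0.37). In replicate 2 Reep3 1424780_a_at was above, by 0.15 and 0.40. The share over all genes counts 1 probe set a gene, the members' count all their probe sets.

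**Figure D3:**
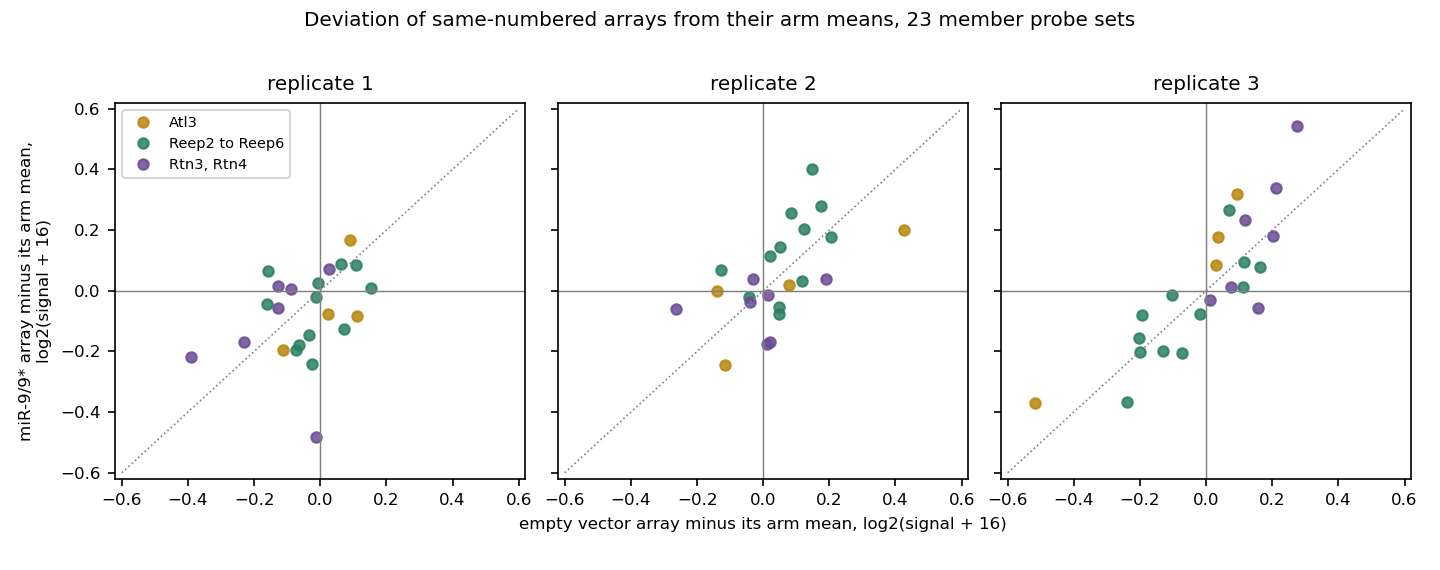
Deviation of each miR-9/9* array from its arm mean against that of the same-numbered empty vector array, in log2(signal + 16), for the 23 member probe sets above the filter, 1 panel per replicate number; the dotted line marks equal deviations. In replicate 3, 21 of 23 points lie at the lower left or upper right, against 16 in each of the other panels.

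Genes with values most like those of Reep4 were named by Pearson correlation over the 6 arrays, a description in which the arms form separate clusters. They were Synj2bp (r = 0.997), Card19 (0.990), Anxa2 (0.984), Magt1 (0.984) and Tab3 (0.983). Card19 (1431359_a_at) gave 333, 363 and 334 with the empty vector and 115, 153 and 164 with miR-9/9*. Synj2bp, an outer mitochondrial membrane protein, gave 662, 680.1 and 713 against 395, 447 and 475.5. The most opposite were Gypc (-0.997), F13a1 (-0.996) and Slc31a1, the copper importer (-0.994), at 225, 209 and 208 against 379.5, 362.5 and 330.5 for the last. Among members, the representative probe sets of Reep5 and Atl3 had r of 0.717 and 0.632 with Reep4, Reep3 0.531 and Reep6 0.0655, whereas Rtn4, Reep2 and Rtn3 had -0.676, -0.715 and -0.799.

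**Figure D4:**
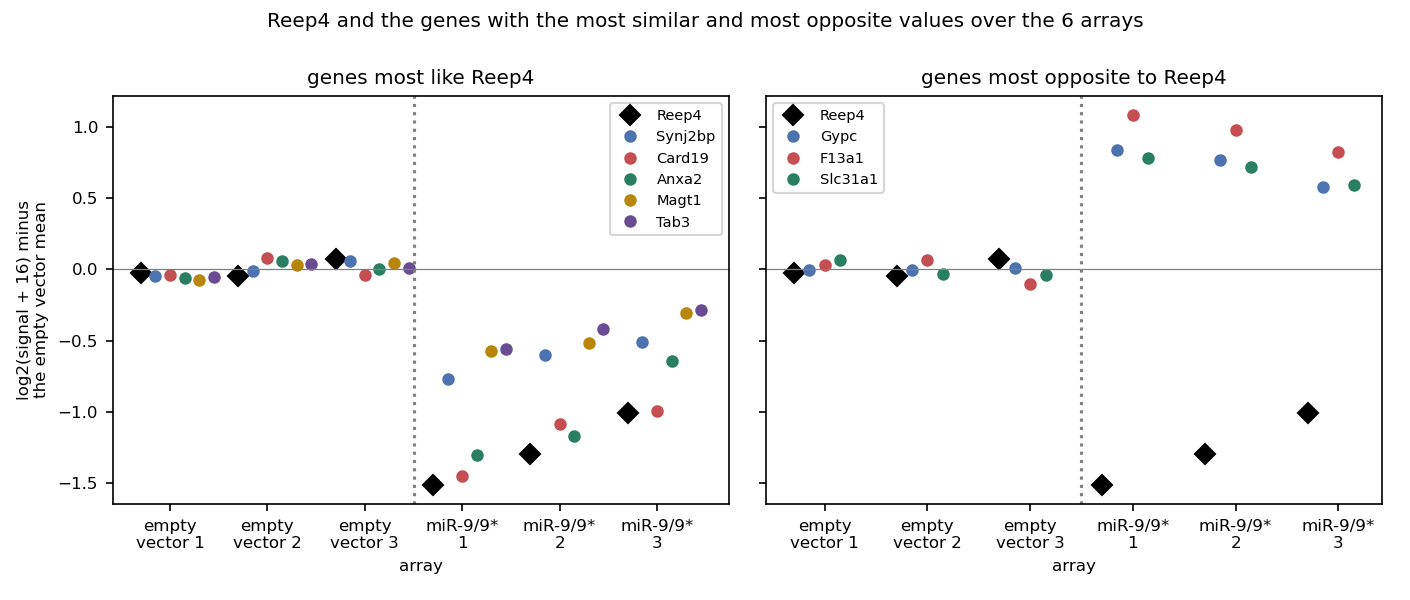
Values of Reep4 (black diamonds) and of the 5 genes with the highest (left) and the 3 with the lowest (right) correlation with it, as log2(signal + 16) minus the gene's empty vector mean, on each of the 6 arrays. Reep4 lies near 0 on the empty vector arrays and below -1 on the miR-9/9* arrays, and Card19, with r = 0.990, falls with it.

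The chromosomal neighbours of Reep4, taken from the RefSeq gene table after the values were seen, were not called. On one side Lgi3 was below the filter and Sftpc, the next gene, had a mean difference of 0.15. On the other side Hr had a mean difference of 0.39 at signals of at most 38.5. Nudt18, a hydrolase gene beyond Hr, gave 90.5, 70.7 and 108 against 66.2, 52.5 and 72.4, a mean difference of -0.40 (limma adjusted p = 0.999, and 0.0827 with the block). Rtn3 and Atl3 are neighbours on 1 chromosome, and their brightest probe sets had mean differences of 0.08 and -0.13.

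Other genes of the ER were taken from 7 lists of 84 genes, of which 74 were tested. Without the block limma called 0 of them (0.0588% of all genes were called in either direction). An unadjusted p under 0.05 was reached by 6 (4.60% of all genes). With the block 1 was higher and 2 were lower, against 1.51% and 1.45% of all genes, and 19 had an unadjusted p under 0.05 (17.0% of all genes). The shares of 4.60% and 17.0% also apply to the unadjusted counts by list below. Rtn4ip1, a mitochondrial protein named for binding Rtn4, rose. Its probe set 1417668_at gave 134, 111 and 83.1 with the empty vector and 208, 214 and 132 with miR-9/9*, a mean difference of 0.67 (block SE 0.0945, limma adjusted p = 0.00777 with the block and 0.815 without it). The arms overlapped by 1 array. A second probe set above the filter, 1448800_at, rose as well, from 82.3 ± 10.2 to 134.9 ± 9.98 (0.62, block adjusted p = 0.0121 over all probe sets in limma). The call was lost without a variance trend (limma adjusted p = 0.0648).

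Ssr1, a subunit of the translocon-associated complex that helps proteins enter the ER, and Esyt1, a tether between ER and plasma membrane, fell with the block. Ssr1 (1417763_at) gave 1376, 1652 and 1267 against 922, 1267 and 1062, a mean difference of -0.40 (limma adjusted p = 0.0301 with the block, 0.994 without it). Its other probe sets had mean differences of -0.25, -0.13 and -0.03. Esyt1 (1451099_at) gave 1003, 1104 and 658 against 613, 749.8 and 532, a mean difference of -0.51 (limma adjusted p = 0.0135 with the block, 0.999 without it). A dim second probe set of Esyt1 was at 33.9 ± 8.06 against 35.1 ± 10.5. Leaving out replicate 1 ended the blocked calls of Ssr1 (limma adjusted p = 0.207) and Esyt1 (0.0586), leaving out replicate 2 that of Ssr1 (0.0539), and both were lost without a variance trend (0.148 and 0.114) and without a filter (0.120 and 0.0754).

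By list, sheet and translocon genes stood lowest. Of 9 tested, 1 fell with the block (Ssr1), and 1 and 5 had an unadjusted p under 0.05 in limma without and with it. In all 3 replicate numbers 8 were lower and 0 higher, against 18.0% and 21.0% of all genes. The median difference was -0.16 against 0.01 for all genes. Quantile normalization left 7 of 9 and a median of -0.14, and centring on medians 8 and -0.18. Of all 10208 genes 1967 were then lower in all 3 with quantile normalization (median 0.0025) and 2119 with centring (median -0.011). Of 10 tested tubule and fusion genes 0 were called in either limma fit (0 and 2 with an unadjusted p under 0.05), with a median of -0.01. Among them 3 were lower and 0 higher in all 3 replicate numbers. Rab10, a GTPase that marks growing tubules, was at 1219 ± 8.14 against 1240 ± 41.8, and Tmem33 at 764 ± 141 against 668 ± 80.9. Other tested probe sets of Tmem33 had mean differences of -0.09, 0.01 and 0.04. The neuronal members of the member families, Atl1, Rtn1 and Rtn2, lay below the filter.

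Of 7 ER-phagy receptors 0 were called in either limma fit (0 and 1 with an unadjusted p under 0.05), with a median of -0.11. Retreg1, a sheet receptor, gave 530.6, 602.5 and 537 against 427, 527.5 and 416 (-0.28, limma adjusted p = 0.0630 with the block), and the brightest Sec62 probe set had a difference of -0.11. Sec62 had no settled direction, since its other probe sets ran from -0.02 to 0.16 and the average over probe sets was 0.02. Of 9 contact site genes 1 fell with the block (Esyt1), and 1 and 3 had an unadjusted p under 0.05 in limma without and with it. The median of the contact site genes was 0.03. Of 14 nuclear envelope genes 0 were called in either limma fit (0 and 3 with an unadjusted p under 0.05). Their median was 0.05, with the lamin B receptor Lbr at 2510.0 ± 227 against 2153 ± 464 and Banf1 at 1695 ± 301 against 1700.0 ± 146. Lower and higher in all 3 replicate numbers were 3 and 3 ER-phagy genes, 1 and 3 contact site genes, and 1 and 5 nuclear envelope genes. For all genes the shares were 18.0% and 21.0%.

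Of 17 ER chaperone and unfolded protein response genes 0 were called in either limma fit (1 and 2 with an unadjusted p under 0.05). Their median was -0.07, with 7 lower in all 3 replicate numbers (18.0% of all genes were) and 0 higher (21.0%). Quantile normalization left 6 lower, where 1967 of all 10208 genes were. Centring arrays on their medians left 3, where 2119 of all genes were. The chaperone Hspa5 was at 3563 ± 292 against 3384 ± 190.0 and the response factor Xbp1 at 4093 ± 135 against 4051 ± 225. Other probe sets of Hspa5 had mean differences of -0.22 and 0.04. Of 8 reticulon receptors and partners 1 rose with the block (Rtn4ip1), and the median of 0.03 turned to -0.0028 with quantile normalization. An unadjusted p under 0.05 was reached by 3 of the 8 in either limma fit. In all 3 replicate numbers 3 were lower and 2 higher.

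**Figure D5:**
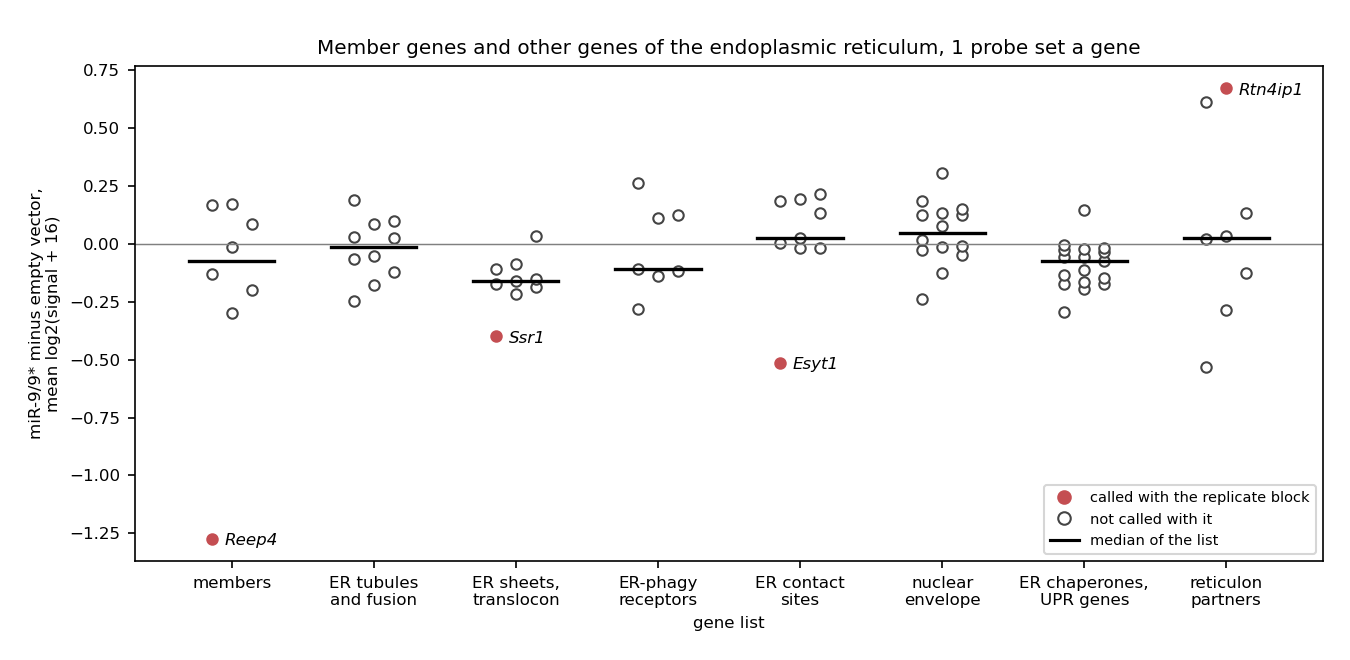
Difference miR-9/9* minus empty vector in mean log2(signal + 16) for 8 member genes and 74 other ER genes in 7 lists, each gene by its brightest probe set; filled points passed limma with the replicate block at an adjusted p under 0.05, and black lines are medians. The filled points are Reep4, Ssr1 and Esyt1 below 0 and Rtn4ip1 above it.

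Markers of blood cell types were called only in the fit with the block, and their part in the members' values was not tested. Without the block limma called 0 markers in each of the 6 lists, with 0 to 3 a list at an unadjusted p under 0.05 (4.60% of all genes). With the block, where 1.51% of all genes were called higher and 1.45% lower, 1 of 9 tested myeloid markers, Csf2rb, was lower, 3 of 7 tested erythroid markers were higher, 4 of 6 megakaryocyte and 2 of 4 eosinophil markers were higher, and 3 of 6 late neutrophil markers were lower. Summed signals of the erythroid list ran from 2779 to 3958 with the empty vector and from 3832 to 3989 with miR-9/9*. Those of the megakaryocyte list ran from 1211 to 2260 and from 1495 to 2846, of the eosinophil list from 249.9 to 1372 and from 275.4 to 3767, and of the late neutrophil list from 1002 to 3900 and from 238 to 2633. Such sums of linear signals are weighted to the brightest genes and can hide changes of dimmer ones. Tfrc made up much of the erythroid sum (1515 to 2638 and 1721 to 2012). Itga2b did so in the megakaryocyte list (946.5 to 1595 and 1015 to 1645). The 3 called erythroid markers were Rhag (75.3 ± 38.0 against 417 ± 77.0), Gata1 (621.5 ± 99.2 against 894 ± 117) and Klf1 (54.8 ± 19.9 against 113 ± 55). Of those tested and not called, Epb42 and Tfrc had differences of -0.155 and -0.095, Hemgn and Epor of 0.21 and 0.12. The defining red cell genes Alas2 and Slc4a1 were below the filter on all 6 arrays, at most 1.54 and 6.28. In bulk RNA a change in the share of a cell type and a change per cell cannot be told apart.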

How the data were processed

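The deposited values are MAS5 signal intensities on a linear scale, which the authors scaled to a mean of 100 per array without the lowest and highest 2%, as the values show; the submitters' processing notes name MAS5 without a version. Per the labels' protocols, 6 ug of total RNA went into the labelled cRNA. Names came from a platform annotation of the arrays, with probe sets of 1 symbol only, and were checked by Entrez ID against RefSeq genes of GRCm38.p6. Protein sequences of the members were not used here.

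Signals were taken as log2(signal + 16) and fitted in R 4.3.3 with limma 3.58.1 (linear model, moderated by eBayes using a variance trend; two-sided p, Benjamini-Hochberg over all genes or probe sets tested, threshold 0.05), without a block and with the replicate number as a block. The fit was tested on simulated data. The deviations from the arm mean, over genes, had correlations between same-numbered arrays of 0.491, 0.616 and 0.680, each over 0.1, so the pairing is read from the data; the labels give only the numbers. Members and lists were chosen with earlier results of these data known. All member probe sets are named. From each list up to 4 called genes are named, or the 2 brightest where none was called. For Reep4 the 5 most similar and 3 most opposite genes are named. Alternatives were pseudocounts of 1 and 64, no filter or one at a signal of 50, quantile normalization, median centring, no variance trend, averaged probe sets, the block, and leaving out arrays. Where a single array was left out, its same-numbered partner stayed, so those differences were not taken within replicate numbers.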

Additional observations from a re-analysis of the deposited data

How the results depend on the processing

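The number of genes called without a block was 6. It became 2 with a pseudocount of 1, 0 when dim probe sets were kept (in limma 892 had an unadjusted p under 0.05), 3 without a variance trend, 302 with the replicate block, and 0 to 7 when single arrays were left out. With the block it was 162 without replicate 1, 340 without replicate 2 and 357 without replicate 3, 38 with no variance trend and 74 with no filter. Of probe sets, 2 were called, against 0 with a pseudocount of 64 (in limma 802 had an unadjusted p under 0.05), 0 without a filter (1944) and 439 with the replicate block, and 0 to 7 without single arrays. With the block they were 234, 453 and 313 without replicates 1, 2 and 3, 46 with no variance trend and 54 with no filter. Member probe sets called were 0, and 1, Reep4, with the block, also without replicate 1 or 3, a variance trend or a filter. Without replicate 2 of both arms the block called 2, Reep3 and Reep4, and without single arrays 0 to 1 were called, the 1 being Reep4 without miR-9/9* replicate 3. Genes of the ER lists called were 0, then 3 with the replicate block, and with it 1, 2 and 3 without replicates 1, 2 and 3, 1 without a filter and 0 without a variance trend (in limma 12 then had an unadjusted p under 0.05). The median member difference ran from -0.0672 (without empty vector replicate 3) to -0.0015 without single arrays, against -0.02. Reep4's difference stayed between -1.44 and -0.94 in all settings run. Its unblocked gene call had limma adjusted p from 0.0276 to 0.2499 over the alternatives, and the blocked one from 0.000146 to 0.0260. The block was not combined with other pseudocounts, quantile normalization or median centring. Reep4 was chosen from this same contrast, so these values describe the processing only and nothing is read from them. The number of arrays limits all values, and dim signals such as those of Reep1 and Reep2 were judged by the filter alone, since no detection call entered.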
